A study of Rattus norvegicus with 6 samples.

Results

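The 38 genes described here encode integrins, laminins and 4 further basement membrane glycoproteins of the rat common carotid artery. They were taken by symbol from a deposited table of read counts, in which all 38 listed symbols were present among 24005, and all 38 passed the filter on low counts. The arteries fall into 3 groups. The control was 1 normal common carotid artery, without clot or therapy. The other 2 groups were arteries in which a thrombus had been produced with ferric chloride, which damages the endothelium by oxidation. They were then reopened by sonodynamic therapy (ultrasound acting on a sensitizing agent) combined with what the labels term physical-explosion therapy. They were collected 1 day (3 libraries) or 7 days (2 libraries) after recanalization. No group had the injury, the clot or either therapy alone, so their effects cannot be told apart. Strain, sex and age are not stated in the labels. The labels do not say whether the libraries of a group come from separate animals, so the p-values below measure only the spread between these samples, which may be technical. The control has no replicate.

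Integrins are transmembrane receptors made of an alpha and a beta chain, and the pairing of the chains decides which ligand is bound. Those with the beta 2 or beta 7 chain are found on leukocytes, the pair of alpha IIb and beta 3 on platelets, and most beta 1 pairs on cells of the tissue itself, where they bind fibronectin, collagens or laminins. Laminins are trimers of an alpha, a beta and a gamma chain that, together with nidogens, perlecan, agrin and type IV collagen, form the basement membrane around smooth muscle cells and beneath the endothelium. The genes were divided by these roles into 6 leukocyte integrin chains, 2 chains of the platelet integrin, 9 alpha and 3 beta chains of the vessel wall, 4 integrin chains best known from epithelia, 5, 3 and 2 laminin alpha, beta and gamma chains, and the 4 glycoproteins Nid1, Nid2, Hspg2 and Agrn.

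The promoters of 4 integrin genes are shown because the 4 had different patterns over the groups: Itgam (leukocyte integrin, above the control at both times), Itga5 (highest at day 1), Itga11 (highest at day 7) and Itga2b (platelet integrin, lowest at day 7). Each is 300 bases long, from 250 bases before the annotated transcription start to 50 bases after it, taken from RefSeq on the GRCr8 build and printed 5′ to 3′ in the direction of the gene. Capitals mark the letters GAGGAA, the core bound by ETS factors such as PU.1 of myeloid cells, on either strand (TTCCTC is the same motif on the other strand). The coordinates are chr1:192089342-192089641 on the plus strand for Itgam, chr7:136381256-136381555 on the minus strand for Itga5, chr8:72041182-72041481 on the plus strand for Itga11 and chr10:87925784-87926083 on the minus strand for Itga2b.
Itgam: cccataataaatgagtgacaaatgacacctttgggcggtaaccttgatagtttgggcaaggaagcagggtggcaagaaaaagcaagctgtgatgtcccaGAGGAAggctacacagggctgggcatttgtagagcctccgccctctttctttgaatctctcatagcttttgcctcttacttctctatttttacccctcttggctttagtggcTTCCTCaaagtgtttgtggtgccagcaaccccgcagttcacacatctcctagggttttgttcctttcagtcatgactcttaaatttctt
Itga5: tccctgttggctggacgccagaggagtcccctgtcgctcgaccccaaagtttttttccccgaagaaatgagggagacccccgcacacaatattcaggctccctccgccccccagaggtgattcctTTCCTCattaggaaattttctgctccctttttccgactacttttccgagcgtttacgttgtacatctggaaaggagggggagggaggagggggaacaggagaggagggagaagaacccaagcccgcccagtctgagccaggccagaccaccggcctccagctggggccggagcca
Itga11: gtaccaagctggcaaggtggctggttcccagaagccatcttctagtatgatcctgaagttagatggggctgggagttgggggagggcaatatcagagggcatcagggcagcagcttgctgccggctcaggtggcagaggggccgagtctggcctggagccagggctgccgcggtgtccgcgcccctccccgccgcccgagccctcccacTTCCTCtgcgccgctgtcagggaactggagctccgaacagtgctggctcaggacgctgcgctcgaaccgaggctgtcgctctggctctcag
Itga2b: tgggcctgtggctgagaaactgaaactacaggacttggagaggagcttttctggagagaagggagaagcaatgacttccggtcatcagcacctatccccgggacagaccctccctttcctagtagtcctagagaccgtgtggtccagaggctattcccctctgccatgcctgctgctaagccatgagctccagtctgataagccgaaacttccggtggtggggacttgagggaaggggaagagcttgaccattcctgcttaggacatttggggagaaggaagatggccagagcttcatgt
The Itgam promoter held 2 matches, at -151 to -146 and, on the other strand, at -39 to -34 from the start. The promoters of Itga5 (-125 to -120) and Itga11 (-41 to -36) held 1 each, and that of Itga2b held none. A promoter was listed for 30 of the 38 genes. GAGGAA occurred on either strand in 12 of these 30 (40%), against 27.6% of all 33469 promoters of the table. The 12 were Itgam, Itga5, Itga11, Itgav, Itgb1, Itgb6, Lama3, Lama5, Lamb1, Lamb3, Lamc1 and Nid1. Itgam was the only leukocyte integrin chain among them, and the listed promoter of Itgax had no match. TGACTCA, the AP-1 site, occurred in 2 (6.67%, Itgax and Lama3) against 4.63%, and the CArG box of serum response factor in 2 (6.67%, Itgb6 and Lama2) against 1.64%. None of the 3 motifs overlaps another in the printed sequences. These are matches of letters, not binding sites.

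Day 1 replicate 1 was unlike the rest of its group, and whether its label is right could not be settled from the files. Across genes, which are no replicates, the Pearson correlation of log2 CPM between it and the control was 0.948, but only 0.883 and 0.919 between it and day 1 replicates 2 and 3. The correlation was 0.958 between those 2 and 0.953 between the day 7 libraries. CPM are counts scaled to the library total after normalization by the trimmed mean of M-values, and every value is listed in replicate order. Library totals were 30078022 to 47240013 counts, and a floor of 3 counts equals 0.0598 to 0.0974 CPM. CPM of genes without counts were left at 0, and the floor was used only where it is named. The tissue carried the markers of an artery: the summed CPM of 6 smooth muscle markers was 26890 in the control, 27635, 6352 and 9542 at day 1, and 17033 and 16666 at day 7. In bulk tissue, fewer cells of a type and less RNA per cell cannot be told apart.

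Each of the 3 comparisons was tested with the edgeR quasi-likelihood test in 1 fit of all 6 libraries, with the Benjamini-Hochberg adjustment over the 15860 genes tested. At an adjusted p under 0.05 it called 0 of the 38 genes in each comparison, and 0 genes overall (0%). At an unadjusted p under 0.05, for day 1 against the control, 2 of the 38 were higher and 0 lower, among 1373 of all genes. For day 7 against the control 2 were higher and 4 lower (1601 of all genes), and for day 7 against day 1 2 were higher and 5 lower (1602 of all genes). Of the 37 genes with an adjusted p, the DESeq2 Wald test called 7 higher and 0 lower at day 1 against the control (4.88% and 0.737% of all genes), 7 higher and 0 lower at day 7 (4.14% and 1.04%), and 0 higher and 2 lower for day 7 against day 1 (1.33% and 1.8%). With day 1 replicate 1 left out, edgeR called 8 higher and 1 lower of 37 at day 1 (4.83% and 0.773% of all genes), 6 higher and 2 lower at day 7 (3.81% and 0.577%), and 0 for day 7 against day 1 (0%). The 38 genes had no common direction: their median log2 fold change was 0.09 at day 1 and 0.08 at day 7, against 0.06 and 0.09 for all genes, and -0.26 against 0 between the times. Without Lama1, which had 0 counts in the control and at day 7, these medians were 0.06, 0.15 and -0.26.

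All 6 leukocyte integrin chains were near the control in day 1 replicate 1 and far above it in the other 4 treated libraries, Itgb7 excepted in the first respect (5.92-fold). Their summed CPM was 6.95 in the control and 12.3 in day 1 replicate 1, but 1178 and 474 in day 1 replicates 2 and 3, and 726 and 388 at day 7. Itgb2, the beta 2 chain shared by the leukocyte integrins LFA-1, Mac-1 and p150,95, was at 1.69 CPM in the control, at 4.0, 537 and 187 CPM at day 1 and at 413 and 159 CPM at day 7. Itgam, the alpha chain of Mac-1 on myeloid cells, had 0.649 CPM in the control, 1.44, 301 and 132 CPM at day 1 and 136 and 97.4 CPM at day 7. Itgax, the alpha chain of p150,95, had 3.02 CPM in the control, 4.0, 230 and 83.3 CPM at day 1 and 127 and 46.2 CPM at day 7. For these 3 genes every treated library lay above the control, day 1 replicate 1 by 1.33-fold to 2.37-fold and the other 4 by 15.3-fold to 464-fold.

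The other 3 chains of the class showed the same split between libraries. Itgal, the alpha chain of LFA-1, was at 0.714 CPM in the control, at 1.34, 61.7 and 40.1 CPM at day 1 and at 26.0 and 51.7 CPM at day 7. Itga4, which pairs with beta 1 or beta 7 and binds VCAM-1, was at 0.747 CPM in the control, at 0.704, 39.7 and 20.5 CPM at day 1 and at 21.1 and 30.2 CPM at day 7. In day 1 replicate 1 Itga4 was therefore just below the control, the only one of the 6 chains for which that held. Itgb7, the beta 7 chain of lymphocyte homing receptors, had 0.130 CPM (4 counts) in the control, 0.768, 8.54 and 11.3 CPM at day 1 and 3.09 and 3.74 CPM at day 7. Itga4 and Itgb7 overlap the genes Cerkl and Znf740 in the reference annotation, and whether the counting used strand is not stated, so reads of such pairs may not be told apart.

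**Figure D1:**
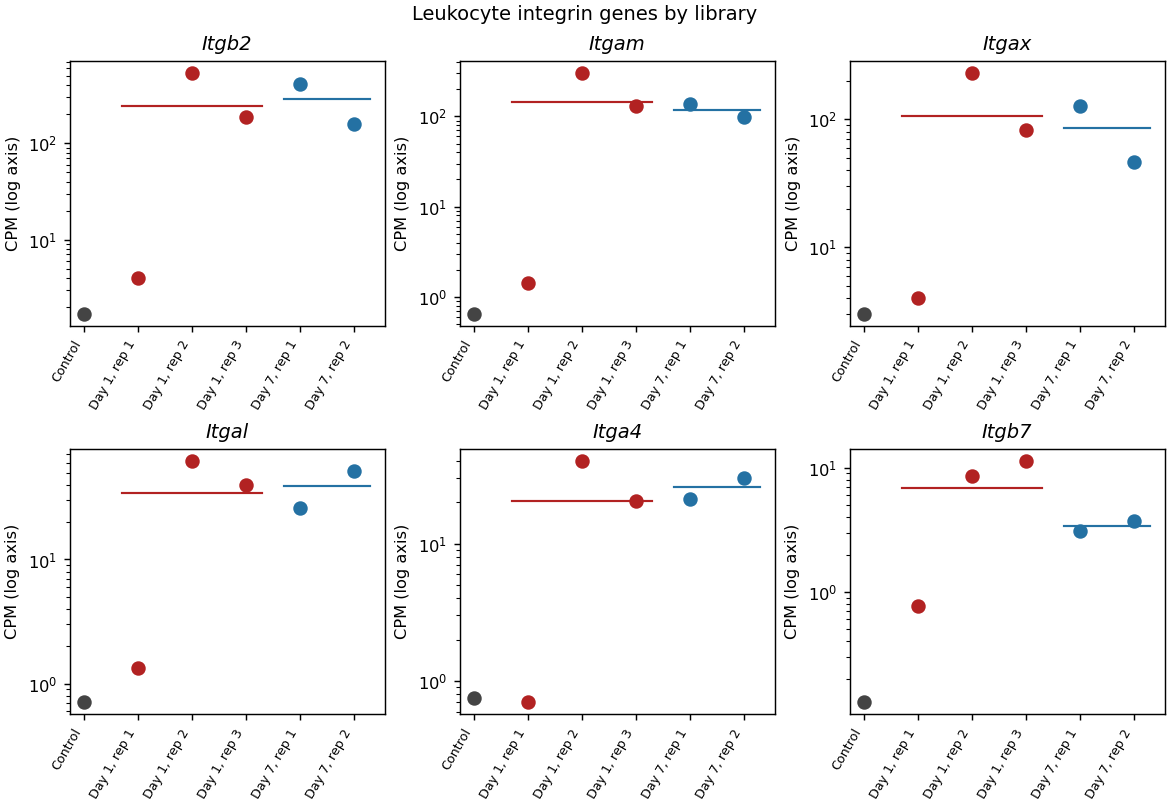
CPM of the 6 leukocyte integrin genes in each library on a logarithmic axis, 1 point per library, with a line at the mean of each treated group. In all 6 panels the control and day 1 replicate 1 lie at the bottom (Itgb2 1.69 and 4.0 CPM) and the other 4 libraries above them (Itgb2 159 to 537 CPM).

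By edgeR on all libraries the log2 fold changes at day 1 were 7.79 ± 3.33 (SE, adjusted p = 0.582) for Itgam, 7.16 ± 3.13 (adjusted p = 0.584) for Itgb2, 5.58 ± 2.41 (adjusted p = 0.582) for Itgal and 5.69 ± 1.93 (adjusted p = 0.575) for Itgb7. At day 7 edgeR gave 7.48 ± 3.31 for Itgam, 7.40 ± 3.19 for Itgb2, 5.76 ± 2.46 for Itgal and 4.68 ± 1.87 for Itgb7, each with an adjusted p of 0.477. Itga4 and Itgax had edgeR folds of 4.76 ± 2.32 and 5.13 ± 2.48 at day 1 (adjusted p = 0.592 for both) and 5.10 ± 2.40 (adjusted p = 0.479) and 4.84 ± 2.47 (adjusted p = 0.489) at day 7. None passed, with SE values of 1.87 to 3.33. DESeq2 called all 6 chains higher at day 1, with adjusted p from 0.00186 (Itgb2) to 0.0416 (Itga4). At day 7 it called all but Itgax, with adjusted p from 0.00428 (Itgb2) to 0.0438 (Itgb7) and 0.0637 for Itgax. With day 1 replicate 1 left out, edgeR called the same 5 chains at both times, with adjusted p of 0.00806 and 0.00916 for Itgam and at most 0.0383 for the other 4, while Itgax was at 0.0529 and 0.0800. Between the times the fold of the 6 chains was from -1.01 (Itgb7) to 0.34 (Itga4) and none was called by any tool.

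The sums of macrophage and of T and NK cell markers had the order of these integrins between the 2 low and the 4 high libraries. The sums of neutrophil and B cell markers did not. The summed CPM of 10 macrophage markers was 77.2 in the control, 44.1, 5820 and 2530 at day 1 and 6091 and 4947 at day 7, and all 10 were detected in every library. Lyz2 made up most of this sum in every treated library (4731 CPM in day 1 replicate 2), but not in the control (13.05 CPM). Cd163 had another order, with 9.16 CPM in the control, above all of day 1 (0.832, 6.997 and 2.80 CPM). At day 7 Cd163 was at 56.03 and 25.99 CPM. The 5 neutrophil markers summed to 2.43 CPM in the control, 23.5, 59.4 and 91.7 CPM at day 1 and 13.4 and 13.8 CPM at day 7, with 1 of them at 0 in day 7 replicate 2. The 7 T and NK cell markers summed to 0.0325 CPM in the control, where 6 were at 0, to 1.06 CPM in day 1 replicate 1, where 3 were at 0, and to between 7.17 and 9.56 CPM in the other 4 libraries. Prf1 did not have this order, with 0.608 CPM in day 1 replicate 1 and 0.515 CPM in day 1 replicate 3. The 4 B cell markers summed to at most 0.941 CPM in any library. The control and day 1 replicate 1 were thus lowest for the sums of the macrophage and of the T and NK cell markers as well as for the integrins. The part of these cells in the result was not tested.

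**Figure D2:**
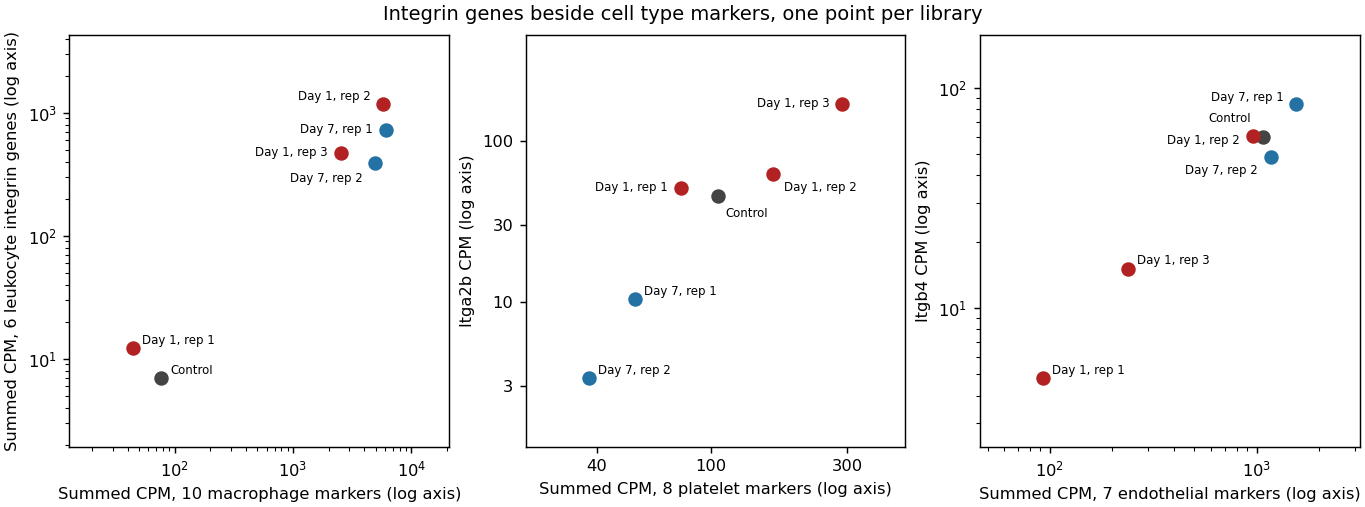
Integrin genes against cell type markers, 1 point per library, on logarithmic axes: the summed CPM of the 6 leukocyte integrin genes against 10 macrophage markers (left), Itga2b against 8 platelet markers (middle) and Itgb4 against 7 endothelial markers (right). Day 1 replicate 1 has 44.1 CPM of macrophage markers and 12.3 CPM of integrins, while the control has 77.2 and 6.95 CPM. Day 7 replicate 2 has the lowest platelet marker sum (37.6 CPM) and 3.34 CPM of Itga2b. The control has more platelet markers than day 1 replicate 1 (106 against 78.6 CPM) but less Itga2b (45.5 against 51.4 CPM). Day 1 replicate 1 has the lowest endothelial marker sum (92.9 CPM) and 4.80 CPM of Itgb4.

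Within the leukocyte class, levels per length showed which alpha chain led. On the deposited FPKM scale, Itgam stood at 0.475 and 0.597 of the Itgb2 level in day 1 replicates 2 and 3 and at 0.279 and 0.517 at day 7. Itgax stood at 0.289 and 0.301 in those day 1 libraries and at 0.207 and 0.196 at day 7. Itgal stood at 0.0821 and 0.153, and then at 0.0449 and 0.232. Itgam was therefore above Itgax, and Itgax above Itgal, in these libraries except in day 7 replicate 2, where Itgal was above Itgax. In the control and day 1 replicate 1 the order was different, with Itgax at 1.21 and 0.674 of the Itgb2 level, on FPKM of at most 1.1 for either gene.

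Chains of the platelet integrin were lower at day 7 than in the control and at day 1. Itga2b, the alpha IIb chain made by megakaryocytes and carried in platelets, was at 45.5 CPM in the control, at 51.4, 63.0 and 171 CPM at day 1 and at 10.4 and 3.34 CPM at day 7. All day 1 libraries were above the control and both day 7 libraries below it, at 0.228 and 0.0734 of its level. Its beta 3 partner Itgb3, which also pairs with alpha V on cells of the vessel wall, was at 75.0 CPM in the control, at 63.9, 58.8 and 91.5 CPM at day 1 and at 30.7 and 41.2 CPM at day 7. The groups at day 1 and day 7 did not overlap for either chain, but the day 1 libraries lay on both sides of the control for Itgb3.

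Between day 7 and day 1 the log2 fold change of Itga2b was -3.79 ± 0.85 (edgeR, adjusted p = 0.423) and that of Itgb3 -0.99 ± 0.28 (edgeR, adjusted p = 0.459). DESeq2 called Itga2b (adjusted p = 6.25e-05) but not Itgb3 (adjusted p = 0.103). Against the control the day 7 folds were -2.73 ± 0.93 and -1.06 ± 0.36 (edgeR, adjusted p = 0.477 for both), and no tool called either. On the FPKM scale the ratio of Itga2b to Itgb3 was 0.277 in the control, 0.367, 0.489 and 0.857 at day 1 and 0.154 and 0.0370 at day 7, so that the alpha chain varied more than the beta chain. The 8 platelet markers summed to 106 CPM in the control, 78.6, 165 and 288 CPM at day 1 and 54.6 and 37.6 CPM at day 7. One of them, Gp1bb, was at 0 in every library. The libraries with the highest and the lowest marker sum, day 1 replicate 3 and day 7 replicate 2, were also those with the highest and the lowest Itga2b. Pf4 made up most of the sum in every library (89.2 CPM in the control, 228 CPM in day 1 replicate 3). Gp6 had another order, lowest in the control (3.15 CPM) and above it at day 7 (3.91 and 7.20 CPM). Gp5 was lowest in day 7 replicate 1, with 0 counts. The part of platelets in the result was not tested.

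Among the alpha chains of the vessel wall, Itga5 was highest at day 1. Itga5, the alpha chain of the fibronectin receptor, was at 391.8 CPM in the control, at 1429, 1117 and 582 CPM at day 1 and at 327 and 231 CPM at day 7. Every day 1 library lay above the control, by 1.49-fold to 3.65-fold, and both day 7 libraries lay below it. Day 1 replicate 1, which resembled the control for the leukocyte chains, had the highest Itga5 of all. The log2 fold change was 1.41 ± 0.62 at day 1 against the control (edgeR, adjusted p = 0.582) and -1.90 ± 0.48 at day 7 against day 1 (edgeR, adjusted p = 0.434). DESeq2 called the second (adjusted p = 0.00730) and not the first (adjusted p = 0.209).

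Of the collagen-binding chains, Itga11 and Itga10 had their highest values at day 7. Itga11, a collagen receptor of fibroblasts, was at 36.4 CPM in the control, at 43.7, 55.9 and 59.9 CPM at day 1 and at 89.4 and 195 CPM at day 7. Itga10, a collagen receptor best known from cartilage, was low throughout, at 1.3 CPM in the control, 2.50, 2.74 and 4.06 CPM at day 1 and 8.54 and 6.44 CPM at day 7. For both, all day 1 libraries lay above the control and both day 7 libraries above all of day 1. The log2 fold changes at day 7 against the control were 1.97 ± 0.55 for Itga11 and 2.52 ± 0.63 for Itga10 (edgeR, adjusted p = 0.477 for both), and DESeq2 called both (adjusted p = 0.0365 and 0.00262). Against day 1 they were 1.42 ± 0.36 (edgeR, adjusted p = 0.441) and 1.27 ± 0.40 (edgeR, adjusted p = 0.461), and DESeq2 called neither (adjusted p = 0.0633 and 0.0717). The 5 fibroblast markers summed to 1105 CPM in the control, 978, 1738 and 2047 CPM at day 1 and 3139 and 2852 CPM at day 7. Dcn and Dpt were higher in both day 7 libraries than in all others, while Lum, Pi16 and Pdgfra overlapped between the times. Lum was highest in day 1 replicate 3 (1141 CPM, against 916 and 907 CPM at day 7). Pi16 was at 56.6 CPM in the control and at 148 and 44.9 CPM at day 7. The part of fibroblasts was not tested. Itga1, the third collagen-binding chain of this class, was at 61.3 CPM in the control, 65.8, 49.0 and 84.8 CPM at day 1 and 23.0 and 99.6 CPM at day 7, with overlapping groups.

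Itga9, which binds tenascin C and osteopontin among other ligands, was the wall chain with the lowest day 7 values relative to the control. It was at 1016 CPM in the control, at 1004, 356 and 446 CPM at day 1 and at 250 and 244 CPM at day 7. Day 1 replicate 1 was level with the control, while both day 7 libraries were at 0.246 and 0.240 of it and below every day 1 library. The log2 fold change at day 7 was -2.04 ± 0.64 against the control (edgeR, adjusted p = 0.477, and 0.0215 with day 1 replicate 1 left out) and -1.29 ± 0.52 against day 1 (edgeR, adjusted p = 0.494). DESeq2 called neither (adjusted p = 0.0720 and 0.211).

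**Figure D3:**
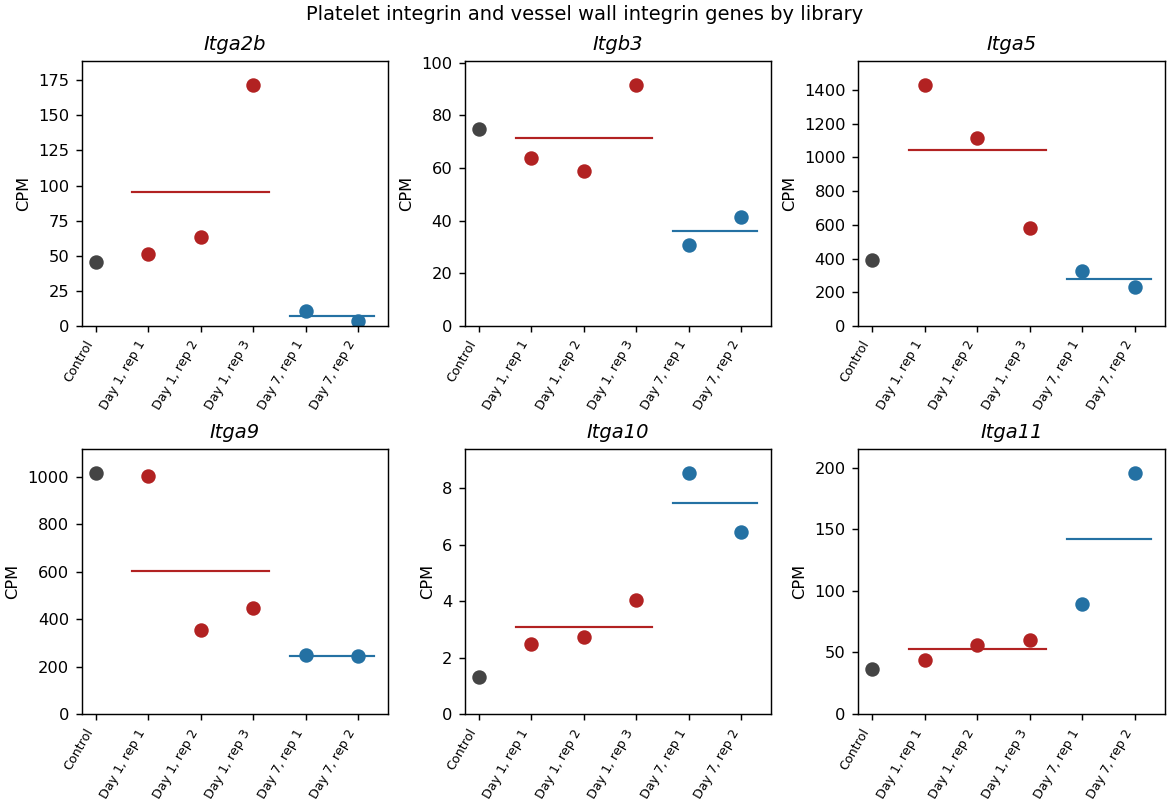
CPM of the platelet integrin genes Itga2b and Itgb3 and of the vessel wall genes Itga5, Itga9, Itga10 and Itga11, 1 point per library, with a line at the mean of each treated group and axes starting at 0. Itga2b, Itgb3, Itga5 and Itga9 are lowest at day 7 (Itga5 231 and 327 CPM, against 582 to 1429 CPM at day 1), and Itga10 and Itga11 are highest there (Itga11 89.4 and 195 CPM, against 43.7 to 59.9 CPM at day 1).

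Itga1, Itga7 and Itgb1 also overlap other protein-coding genes (Pelo, Mettl7b and an unnamed locus), with the same limit on their counts. The remaining alpha chains of the wall held no call under any setting. Itga8, the alpha chain of an osteopontin and nephronectin receptor that is abundant in smooth muscle, was at 4412 CPM in the control, at 5582, 1336 and 2678 CPM at day 1 and at 2555 and 2799 CPM at day 7. Day 1 replicates 2 and 3 and both day 7 libraries lay below the control, and day 1 replicate 1 above it. The sum of the smooth muscle markers lay on the same side of the control in each library, but not each marker did. Myh11, Lmod1 and Smtn were below the control in day 1 replicate 1, and Tagln was above it in both day 7 libraries. Day 1 replicate 3 lay between the day 7 libraries for Itga8 but below both for the marker sum. Itgav, which pairs with several beta chains to bind vitronectin and fibronectin, was at 646 CPM in the control, 707, 424 and 507 CPM at day 1 and 277 and 448 CPM at day 7. Itga7, a laminin receptor of muscle cells, was at 142 CPM in the control, 203, 75.8 and 62.9 CPM at day 1 and 185 and 214 CPM at day 7. Itga3, which also binds laminins, was at 25.1 CPM in the control, 11.8, 52.5 and 22.5 CPM at day 1 and 51.8 and 60.5 CPM at day 7. For Itga7 and Itga3 both day 7 libraries lay above the control, and the day 1 libraries lay on both sides of it.

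No beta chain of the wall was called by any tool. Itgb1, the common partner of most wall alpha chains, was at 1994 CPM in the control, at 2617, 1674 and 1500 CPM at day 1 and at 1737 and 2116 CPM at day 7, with log2 fold changes of -0.05 ± 0.48 and -0.05 ± 0.51 against the control (edgeR, adjusted p = 0.984 and 0.974). Itgb5, which pairs with alpha V, was at 298 CPM in the control, at 290, 164 and 271 CPM at day 1 and at 364 and 342 CPM at day 7. All day 1 libraries were below the control and both day 7 libraries above it, with a log2 fold change of 0.55 ± 0.31 between the times (edgeR, adjusted p = 0.561). Itgb8, an alpha V partner that binds latent TGF beta, was at 47.1 CPM in the control, 66.0, 28.3 and 53.4 CPM at day 1 and 19.1 and 31.3 CPM at day 7, a fold of -0.97 ± 0.44 between the times (edgeR, adjusted p = 0.515).

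Shares per length described which chains dominated each family. On the FPKM scale, Itga8 made up 65.3% of the 9 wall alpha chains in the control, 58.7%, 34.4% and 57.9% at day 1 and 64.3% and 61.9% at day 7, and was the first chain in every library except day 1 replicate 2. In that library Itga5 led with 40.04%, while it held 8.06% in the control, 20.9% and 17.5% in the other day 1 libraries and 11.4% and 7.10% at day 7. Itga9 held 13.1% in the control and 5.47% and 4.68% at day 7, and Itga11 0.670% in the control and 2.80% and 5.37% at day 7. Among the 8 beta chains, Itgb1 held 79.9% in the control, 85.2%, 63.4% and 67.9% at day 1 and 64.0% and 76.2% at day 7. The leukocyte chain Itgb2 held 0.0795% in the control and 0.153% in day 1 replicate 1, but 23.9%, 9.93%, 17.9% and 6.74% in the other 4 libraries. The share of Itgb1 was lower than in the control in those same 4 libraries, although the CPM of Itgb1 was above the control in 1 of them, day 7 replicate 2. With 3 against 2 libraries no exact permutation test of a share can reach 0.05, so the shares are a description.

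**Figure D4:**
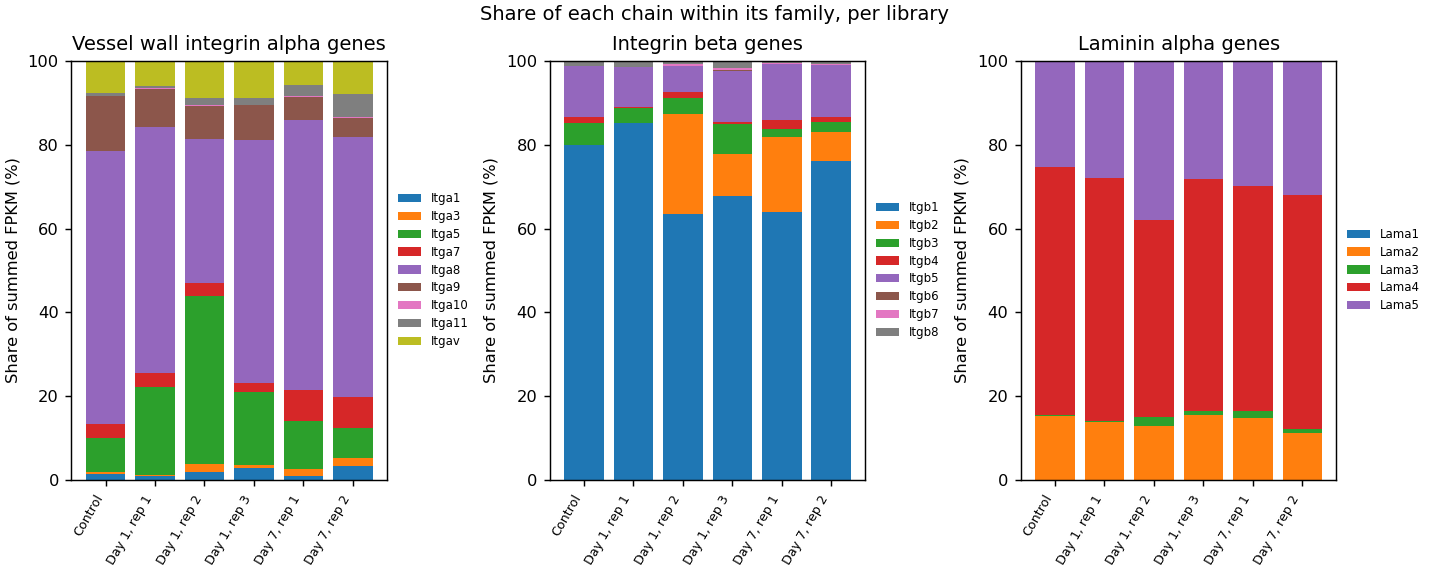
Share of each gene in the summed FPKM of its family, in percent, as stacked bars with 1 bar per library, for the 9 vessel wall integrin alpha genes (left), the 8 integrin beta genes (middle) and the 5 laminin alpha genes (right). Itga8 is the largest wall alpha share in 5 of the 6 libraries, Itgb2 is visible only in 4 libraries (6.74% to 23.9%), and Lama4 is the largest laminin alpha share in all 6 (47.05% to 59.1%).

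Of the 4 integrin chains best known from epithelia, Itga2 and Itgb6 were at low levels in this tissue, at most 18.8 and 1.12 CPM. Itga6 and Itgb4 reached 64.6 and 84.5 CPM. On the FPKM scale their highest values were 11.2 and 15.3, and the wall chain Itga1 was between 6.18 and 26.5. Itga2, which is also the collagen receptor of platelets, was at 0.682 CPM in the control, at 0.992, 18.8 and 11.6 CPM at day 1 and at 3.45 and 3.43 CPM at day 7. Itga6, a laminin receptor that pairs with beta 1 or beta 4, was at 14.2 CPM in the control, at 14.5, 64.6 and 61.2 CPM at day 1 and at 29.7 and 49.6 CPM at day 7. For both, every treated library lay above the control, day 1 replicate 1 by the least. The day 1 folds were 3.93 ± 1.77 and 1.72 ± 0.95 on the log2 scale (edgeR, adjusted p = 0.587 and 0.603, and 0.0128 and 0.0383 with day 1 replicate 1 left out), and DESeq2 called neither (adjusted p = 0.0575 and 0.340).

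Itgb4, the beta 4 chain that binds laminin with alpha 6, followed another order, with 59.96 CPM in the control, 4.80, 60.4 and 15.1 CPM at day 1 and 84.5 and 48.7 CPM at day 7. Its lowest values were in day 1 replicates 1 and 3, the libraries with the lowest sums of the 7 endothelial markers. These markers summed to 1079 CPM in the control, 92.9, 958 and 239 CPM at day 1 and 1557 and 1171 CPM at day 7, and day 7 replicate 1 was highest for both. Vwf made up most of the sum in the control (721 CPM) and at day 7 (1004 and 807 CPM). Vwf, Pecam1, Emcn and Tek were lowest in day 1 replicates 1 and 3, but Tek was highest in the control. For Cdh5, Tie1 and Kdr the lowest libraries were the control and day 1 replicate 1, and day 1 replicate 2 was highest (149, 347 and 14.9 CPM). The 6 epithelial markers summed to 24.9 CPM in the control and to between 9.20 and 15.2 CPM in the treated libraries, with Krt5 at 0 throughout. Krt8 made up most of that sum (21.4 CPM in the control), while Epcam and Cdh1 were at 0 in the control and above it in all 5 treated libraries, at 2.96 CPM or less. The part of these cells was not tested. No tool called Itgb4 (edgeR log2 fold change at day 1 against the control -1.16 ± 1.21, adjusted p = 0.755). Itgb6, a partner of alpha V in epithelia, had 2 counts in the control, 6, 12 and 20 counts at day 1 and 56 and 6 counts at day 7, at most 1.12 CPM.

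Hspg2, Agrn, the nidogens and the 8 laminin chains with over 3 counts in the control make 12 genes. Of these 12, 3 were below the control in day 1 replicate 1, 10 in each of day 1 replicates 2 and 3 and day 7 replicate 1, and 8 in day 7 replicate 2, while 48.9% to 52.7% of all genes were below it in the same libraries. The median log2 ratio of the 12 to the control was 0.25 in day 1 replicate 1, -0.76 and -0.57 in day 1 replicates 2 and 3, and -0.86 and -0.38 at day 7, against -0.05 to 0.02 for all genes. Over all 38 genes, 15 were above and 5 below the control in every day 1 library (27.5% and 27.2% of all genes), and 17 were above and 15 below it in both day 7 libraries (42.9% and 36.2% of all genes). Between the times 3 were higher and 6 lower in every day 7 than in every day 1 library (17.2% and 16% of all genes).

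Lama4, an alpha chain of vascular laminins, was at 582 CPM in the control, at 735, 289 and 357 CPM at day 1 and at 251 and 438 CPM at day 7. Lama5, the alpha chain of a further vascular laminin, was at 466 CPM in the control, at 665, 435 and 338 CPM at day 1 and at 261 and 471 CPM at day 7. Lama2, best known from muscle and nerve, was at 243 CPM in the control, at 284, 126 and 161 CPM at day 1 and at 111 and 141 CPM at day 7. For all 3, day 1 replicate 1 was the highest library and day 7 replicate 1 the lowest, and the largest difference was that of Lama2 at day 7, a log2 fold change of -0.94 ± 0.51 (edgeR, adjusted p = 0.497).

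Lama3, an alpha chain of epithelial laminin, was low, at 3.99 CPM in the control, 5.86, 26.5 and 10.4 CPM at day 1 and 13.2 and 14.7 CPM at day 7, above the control in every library (log2 fold change at day 1 1.84 ± 0.93, edgeR adjusted p = 0.595). Lama1 had 0 counts in the control and at day 7 and 8, 10 and 2 counts at day 1. Per length, Lama4 was the leading alpha chain in each library, with 59.1% of summed FPKM in the control, 57.8%, 47.05% and 55.4% at day 1 and 53.8% and 55.7% at day 7. Lama5 followed with 25.3% in the control, 28.0%, 37.8% and 28.1% at day 1 and 29.9% and 32.1% at day 7. The ratio of Lama5 to Lama4 was 0.429 in the control and between 0.485 and 0.804 in the 5 treated libraries, each of which lay above the control.

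Among the beta chains, Lamb2, a chain of vascular laminins, was at 1165 CPM in the control, at 1286, 484 and 617 CPM at day 1 and at 729 and 714 CPM at day 7. Lamb1, the more widespread chain, was at 659 CPM in the control, at 585, 368 and 455 CPM at day 1 and at 429 and 526 CPM at day 7, below the control in every library. The edgeR folds were -0.69 ± 0.63 for Lamb2 (adjusted p = 0.643) and -0.47 ± 0.40 for Lamb1 (adjusted p = 0.628) at day 7. The ratio of Lamb1 to Lamb2 in FPKM was 0.509 in the control, 0.409, 0.683 and 0.664 at day 1 and 0.529 and 0.663 at day 7. Lamb3, the beta chain of epithelial laminin, had 2 counts in the control and 0 in day 1 replicate 1, but 273 and 195 counts (8.41 and 6.28 CPM) in day 1 replicates 2 and 3 and 66 and 70 counts (1.32 and 2.13 CPM) at day 7. On all libraries the log2 fold changes of Lamb3 were 6.16 ± 3.43 at day 1 and 4.65 ± 3.29 at day 7 (edgeR, adjusted p = 0.604 and 0.567). DESeq2 called neither (adjusted p = 0.103 and 0.300). Without day 1 replicate 1 Lamb3 was called higher at both times (edgeR, adjusted p = 0.0128 and 0.0366).

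Of the gamma chains, Lamc1, the common partner of vascular laminins, held 91.2% to 97.6% of the summed FPKM of both. It was at 1231 CPM in the control, at 1707, 914 and 839 CPM at day 1 and at 471 and 784 CPM at day 7, and both day 7 libraries were below all others (log2 fold change -0.97 ± 0.59 against the control, edgeR adjusted p = 0.524). Lamc3 was at 96.1 CPM in the control, at 62.5, 26.1 and 23.6 CPM at day 1 and at 26.5 and 15.9 CPM at day 7. Every treated library was below the control, at 0.165 to 0.651 of its level. The log2 fold changes were -1.36 ± 0.61 at day 1 (edgeR, adjusted p = 0.587) and -2.18 ± 0.66 at day 7 (edgeR, adjusted p = 0.477). Without day 1 replicate 1 edgeR called both, at -1.95 ± 0.36 (adjusted p = 0.0337) and -2.18 ± 0.36 (adjusted p = 0.0263). DESeq2 called neither (adjusted p = 0.360 and 0.0731).

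The nidogens, which link laminin to type IV collagen, differed from each other. Nid2 was at 16.3 CPM in the control, at 44.0, 98.9 and 60.6 CPM at day 1 and at 30.6 and 54.5 CPM at day 7. Every treated library lay above the control, day 1 replicate 1 included, by 1.87-fold to 6.06-fold. Its log2 fold change at day 1 was 2.05 ± 0.62 (edgeR, adjusted p = 0.553), which DESeq2 called (adjusted p = 0.0393) and edgeR without day 1 replicate 1 did not (adjusted p = 0.0626). Nid1 was at 540 CPM in the control, at 579, 511 and 413 CPM at day 1 and at 397 and 828 CPM at day 7, with the treated libraries on both sides of the control. Per length, Nid2 was at 0.0380 of the Nid1 level in the control and at 0.0827 to 0.243 in the treated libraries.

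The 2 heparan sulfate proteoglycans had no call. Hspg2, which encodes perlecan, was at 4615 CPM in the control, at 5578, 2220 and 2474 CPM at day 1 and at 2075 and 3632 CPM at day 7. Agrn, which encodes agrin, was at 244 CPM in the control, at 196, 152 and 142 CPM at day 1 and at 133 and 162 CPM at day 7. Agrn was below the control in all 5 treated libraries and Hspg2 in all but day 1 replicate 1, with log2 fold changes at day 7 of -0.73 ± 0.32 (edgeR, adjusted p = 0.477) and -0.69 ± 0.74 (edgeR, adjusted p = 0.695).

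**Figure D5:**
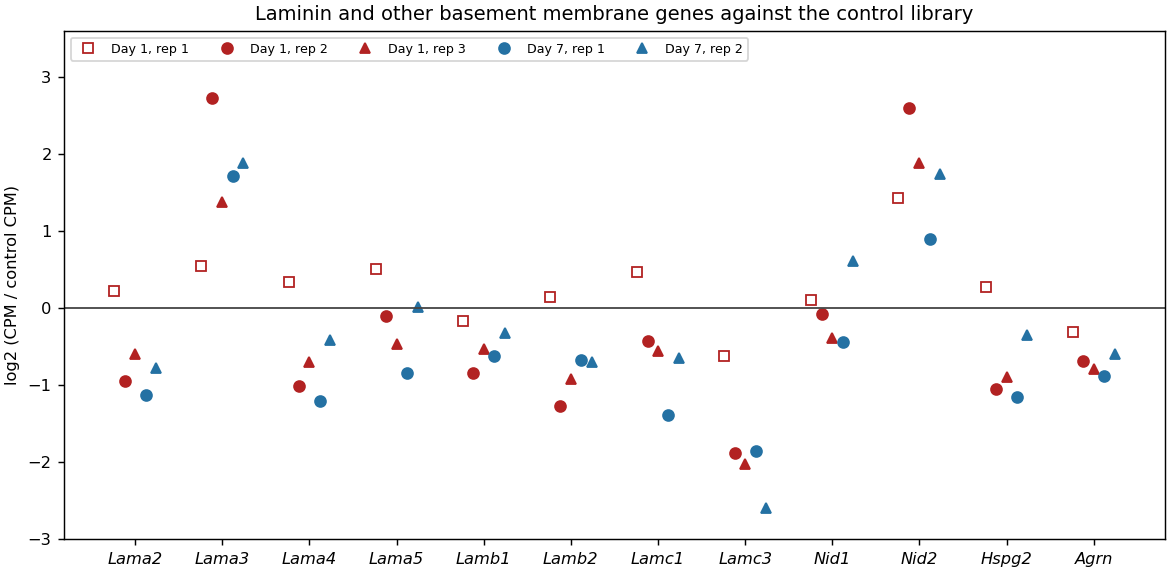
Log2 ratio of CPM to the control CPM for the 12 laminin and other basement membrane genes with over 3 counts in the control, 1 symbol per treated library, with day 1 replicate 1 as open squares and a line at 0 for the control. In day 1 replicates 2 and 3 and day 7 replicate 1 all but 2 genes lie below the line, Lama3 and Nid2 lie above it in every library, and Lamc3 has the lowest values.

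The partners of these receptors were described from 4 further lists. None of their genes passed edgeR on all libraries. At an unadjusted p under 0.05 against the control, edgeR had 1 adaptor higher at day 1 and 0 at day 7, 1 other basement membrane gene higher and 1 lower at day 1 and 2 higher and 1 lower at day 7, 0 other laminin receptors at day 1 and 1 lower at day 7, and 6 ligands higher and 1 lower at day 1 and 4 higher and 1 lower at day 7. Of all genes, 6.13% were higher and 2.53% lower at that p at day 1, and 6.12% and 3.97% at day 7. For the signs and medians of the 4 lists, 54.0% of all genes had a positive fold at day 1 (median 0.06) and 54.8% at day 7 (median 0.09). Of 30 integrin activators and adaptors, 11 had a positive and 19 a negative fold at day 1 (median -0.20 on the log2 scale) and 9 and 21 at day 7 (median -0.34). Lims1, which links integrins to actin through the kinase ILK, was at 163 CPM in the control, 224, 261 and 213 CPM at day 1 and 113 and 143 CPM at day 7 (day 7 against day 1 -0.86 ± 0.23 on the log2 scale, edgeR adjusted p = 0.459). Bcar1, a scaffold of integrin signalling, was at 125 CPM in the control, at 367, 171 and 94.1 CPM at day 1 and at 61.1 and 61.5 CPM at day 7. Rap1b, a small GTPase that activates platelet integrins, was at 177 CPM in the control and between 240 and 305 CPM in the treated libraries, and Tns3, a tensin, at 52.0 CPM in the control and between 63.6 and 204 CPM. Both were above the control in every treated library. Without day 1 replicate 1, edgeR called 4 genes of the list higher and 1 lower at day 1 (4.83% and 0.773% of all genes), and 3 higher at day 7 (3.81%). Fermt3, the kindlin of blood cells, was among those higher at both times (adjusted p = 0.00941 and 0.0123), with 6.82 CPM in the control, 7.43, 101 and 73.2 CPM at day 1 and 76.9 and 55.2 CPM at day 7, the split between libraries seen for the leukocyte integrins. DESeq2 called 0 of the 30 genes in each comparison, with an adjusted p of 0.105 at day 1 and 0.116 at day 7 for Fermt3.

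Of 18 other basement membrane components, 5 had a positive and 13 a negative fold at both times, with medians of -0.35 at day 1 and -0.84 at day 7. Smoc2, a calcium-binding matrix protein, was at 21.7 CPM in the control, at 88.3, 147 and 114 CPM at day 1 and at 260 and 218 CPM at day 7. The control, day 1 and day 7 values did not overlap, with log2 fold changes of 2.42 ± 0.41 and 3.46 ± 0.45 against the control (edgeR, adjusted p = 0.385 and 0.477), which DESeq2 and edgeR without day 1 replicate 1 (adjusted p = 0.0143 and 0.00799) both called. Ntn4, a netrin that binds laminin, was at 8.73 CPM in the control, at 2.69, 4.29 and 4.80 CPM at day 1 and at 22.1 and 30.2 CPM at day 7, below the control at day 1 and above it at day 7 (day 7 against day 1 2.73 ± 0.35, edgeR adjusted p = 0.402, called by DESeq2).

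The type IV collagen genes Col4a5 and Col4a6, whose chains form a network in smooth muscle basement membranes, had lower values at day 7 than in the control. Col4a5 was at 3192 CPM in the control, at 3620, 864 and 1293 CPM at day 1 and at 677 and 815 CPM at day 7. Col4a6 was at 444 CPM in the control, at 631, 168 and 221 CPM at day 1 and at 99.4 and 99.85 CPM at day 7. Day 1 replicate 1 was above the control for both and the other 4 libraries below it. Without day 1 replicate 1, edgeR called both lower at day 7 (adjusted p = 0.0390 and 0.0155).

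Of 13 other laminin receptors, 3 had a positive and 10 a negative fold at day 1 (median -0.27) and 5 and 8 at day 7 (median -0.43), and no tool called any. Sdc4, a syndecan that acts beside alpha 5 beta 1 on fibronectin, was at 125 CPM in the control, at 415, 555 and 271 CPM at day 1 and at 217 and 81.5 CPM at day 7, above the control in every day 1 library as Itga5 was. Sgcb, a sarcoglycan, was at 226 CPM in the control and between 89.8 and 155 CPM in the treated libraries, below the control in each. Sdc2, another syndecan, was at 207 CPM in the control, between 203 and 251 CPM at day 1 and at 293 and 357 CPM at day 7. Utrn, utrophin, was at 359 CPM in the control, between 246 and 329 CPM at day 1 and at 165 and 272 CPM at day 7.

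Of 15 integrin ligands outside the basement membrane, 9 had a positive and 6 a negative fold at day 1 (median 1.79) and 13 and 2 at day 7 (median 1.27). Edil3, at 0 counts in the control, lies above the median at the floor of 3 counts too. DESeq2 called 5 higher and 1 lower at day 1, 4 higher at day 7 and 1 lower for day 7 against day 1 (of all genes 4.88% and 0.737%, 4.14%, and 1.8%). Jam2, a junction protein of endothelial cells that binds alpha 4 beta 1, was the lower one at day 1, with 122 CPM in the control, 41.7, 40.7 and 44.4 CPM at day 1 and 84.1 and 64.0 CPM at day 7. Its values did not overlap between the 3 groups (day 1 against the control -1.53 ± 0.24, edgeR adjusted p = 0.385, and 0.0355 without day 1 replicate 1). Icam1, the ligand of LFA-1 and Mac-1, was at 31.8 CPM in the control, at 154, 288 and 129 CPM at day 1 and at 90.4 and 62.7 CPM at day 7. Thbs1, thrombospondin 1, was at 5.65 CPM in the control, at 600, 3440 and 1318 CPM at day 1 and at 181 and 526 CPM at day 7. Vcam1, the ligand of alpha 4 integrins, was at 519, 422 and 578 CPM at day 1 and 229 and 226 CPM at day 7 against 86.6 CPM. For Icam1, Vcam1 and Thbs1 day 1 replicate 1 was above the control, by contrast with its leukocyte integrins, which lay within 2.37-fold of the control except for Itgb7.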

How the data were processed

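Messenger RNA selected with polyT was sequenced in 6 libraries of rat carotid artery. The authors deposited read counts per gene and FPKM values. The submitters' processing notes list StringTie 1.3.1, HISAT2, Bowtie2 2.2.8 and fastp 0.18.0. What each did, and the genome build, annotation and strandedness, is not given in the sources used here. Over 12848 genes, count divided by FPKM and library total gave 1 length per gene within a relative spread of 2.2e-14, so the deposited FPKM values are length-scaled counts. FPKM was used only to compare genes with each other.

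Counts were scaled with TMM factors (trimmed mean of M-values), filtered with filterByExpr by group (15860 genes kept, 5156 of 24005 had 0 counts throughout) and tested with edgeR 4.0.16 (robust quasi-likelihood, R 4.3.3) in 1 fit of 3 group means. It leaves 3 residual degrees of freedom, all from treated libraries, and assumes the control varies like them. The threshold for a call was an adjusted p of 0.05 (Benjamini-Hochberg over all genes). Folds are log2 with the SE of the fit. These SE values take in the spread between the treated libraries, while the floor of 3 counts covers counting error only. The pipeline was tested on simulated data.

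Alternatives were median-of-ratios or upper-quartile factors, no count filter, DESeq2 1.42.0, limma 3.58.1 (voom, or log2 FPKM with 1 or 0.1 added), each treated library left out, the 5 treated libraries alone, and a replicate block. Values per library are given for genes called by edgeR or among the 4 of a class with the highest mean FPKM. Folds are given for genes called by any tool or among the 4 of a class with the smallest p. Up to 4 genes of each further list were named by smallest p. Fermt3, Edil3 and the values of other genes were chosen after they were seen. Members and lists were chosen with earlier results of these data known. Promoters and gene overlaps come from RefSeq on GRCr8, in which all 38 symbols matched, and a promoter was found for 30. Protein sequences were not used here.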

Additional observations from a re-analysis of the deposited data

Results flagged for a closer look

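For 3 genes, all day 1 libraries lay on one side of the control and all day 7 libraries on the other. Of all genes tested, 2.54% were above the control at day 1 and below it at day 7, as 2 of the 38 were, and 3.07% were below and then above it, as 1 of the 38 was. Itga2b was above the control at day 1 and below it at day 7 (log2 fold change of day 7 against day 1 -3.79, edgeR adjusted p = 0.423). Itga5 did the same (-1.90, edgeR adjusted p = 0.434). Itgb5 was below the control at day 1 and above it at day 7 (0.55, edgeR adjusted p = 0.561). These tests set day 7 against day 1. As both times share the 1 control library, the opposite sides were not tested further. No group had the 4 libraries needed to look for a library far from its group.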

How the results depend on the processing

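The number of the 38 genes called was 0 in each comparison with all libraries and edgeR. DESeq2 called 7 at day 1 against the control, 7 at day 7 against the control and 2 at day 7 against day 1. Leaving out each treated library in turn gave 0 to 9 for day 1 against the control, 0 to 8 for day 7 against the control and 0 to 0 for day 7 against day 1, with the highest counts without day 1 replicate 1 and 0 without any other library. The cause was not tested. The other normalizations, no count filter, limma-voom, limma on log2 FPKM and the 5 treated libraries alone gave 0. Of 360 recomputed values of 29 folds, 327 kept their direction and their side of the threshold, 33 passed it and none changed direction. These folds were picked because any of the settings called them or edgeR on all libraries gave an unadjusted p under 0.05. As they were picked from the same settings, the counts cannot decide how stable folds of these genes are. The 50 chain shares recomputed without a library moved by less than the replicate SD. With 2 or 3 libraries in a group that holds whatever the values, so it cannot decide whether a share rests on 1 library. Without division by length, 7 of 20 shares moved by more than that SD. Lama5 (42.7% at day 1, 42.6% at day 7) then stood above Lama4 (39.2% and 40.3%).

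The replicate block gave 0 calls among these genes for day 7 against day 1, and 692 of all genes at an unadjusted p under 0.05 against 1549 without it. The samples share only a number: deviations of same-numbered libraries had correlations of -0.0481 and -0.0545, so the numbers were not taken to pair them. These are the numbers of the titles. By the numbers that end the descriptions of the day 7 libraries, the correlations were 0.0545 and -0.0101. With 1 control library, and 2 and 0 counts of Lamb3 and 2 of Itgb6 in the lowest libraries, folds of the rarest genes rest on few reads.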
